A study of Mus musculus with 4 samples.

Results

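Named long noncoding RNAs and the host transcripts of small RNAs were examined in mouse large intestinal (LI) regulatory T (Treg) cells with and without Setd2, the methyltransferase that places trimethylation on lysine 36 of histone H3. A gene was a member when its symbol began with Snhg and a digit, when it began with Mir and ended in hg, or when it was one of 16 listed RNAs such as *Malat1*, *Neat1*, *Gas5* and *Dleu2*. These rules took in 43 of the 53379 genes in the table, under 42 symbols, since *Dancr* had 2 entries. By role, 21 were hosts of small nucleolar RNAs (snoRNAs), 13 hosts of microRNAs, 2 nuclear-body RNAs, 2 imprinted RNAs, 4 other regulatory RNAs and 1 the RNA of RNase MRP. *Norad* was not listed under that symbol.

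Poly(A) RNA was sequenced from CD3+CD4+YFP+ cells sorted from the unchallenged large intestine of C57BL/6 mice, with 2 libraries per genotype and 2 to 3 mice pooled in each. Cre was expressed from *Foxp3*, so it acted in Treg cells, and both groups carried it. Control cells were Setd2 flox/+ with Foxp3-YFPcre and had 1 floxed allele, and KO cells were Setd2 flox/flox with Foxp3-YFPcre. The groups therefore differ in the second allele, and no library without Cre was compared.

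Values are FPKM, fragments per kilobase of transcript scaled to the mapped fragments, a level corrected for transcript length and library size. The 4 columns share nearly 1 distribution, with identical values in every library at 2172 of the top 5000 ranks, and the depth of a library could not be read from them. *Setd2* itself was at 38.19 and 27.36 in control and at 26.33 and 36.30 in KO. The level of the whole gene did not separate the groups, and no value for the floxed part was used. The sample titles call the control libraries WT, although their stated genotype is flox/+. "Control" and "KO" below follow these titles, with WT as control. Of the genes that define the sort, *Cd3e* and *Cd4* were at 131 to 220 and *Foxp3*, which drives the YFP, at 2.62 to 5.61. *Cd8a* reached 0.35 at most. B and plasma cell markers summed to 132 to 174 in control and 124 to 185 in KO, nearly all of it *Jchain*. Myeloid markers summed to 166 to 187 and 161 to 211.

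Most snoRNAs lie in introns. When the host transcript is spliced, the intron is trimmed to release the snoRNA, which guides modification of ribosomal RNA, and the spliced exons of hosts such as *Gas5* carry no conserved protein. Many of these exons are removed by nonsense-mediated decay, so the level of a spliced host does not measure its snoRNAs. MicroRNA hosts are cut in the nucleus by Drosha, and what remains of them is what poly(A) sequencing sees. *Malat1* and *Neat1* stay in the nucleus, the first in speckles and the second as the scaffold of paraspeckles.

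Starts of snoRNA hosts are shown first because several of these genes moved together. In human and mouse, hosts of this class often begin, like ribosomal protein genes, at a C followed by a run of C and T, called a 5′ terminal oligopyrimidine start. RefSeq promoter windows (GRCm38.p6) were on hand for 10 of the 13 hosts that could be tested, and for 4 of the 6 that were called lower. Windows were matched by symbol, and that of *Dancr*, 1 of the 10, lies at the start of its untested entry. A gene with more than 1 start counts as a match when any start matches. Each line gives 40 bases before and 20 from the annotated start. Capitals mark TATAA in the 40 bases before the start, and runs of 5 or more C or T within 3 bases before to 7 after it.
Gas5, chr1:161034561-161034620, plus strand: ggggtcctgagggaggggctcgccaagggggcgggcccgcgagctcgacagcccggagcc
Gas5, second start, chr1:161035126-161035185, plus strand: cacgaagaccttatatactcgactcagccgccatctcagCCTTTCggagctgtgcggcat
Snhg8, chr3:123508317-123508376, minus strand: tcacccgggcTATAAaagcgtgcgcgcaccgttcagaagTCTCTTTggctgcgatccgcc
Snhg17, chr2:158361503-158361562, minus strand: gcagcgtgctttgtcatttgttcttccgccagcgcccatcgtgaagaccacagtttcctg
Snhg17, second start, chr2:158361490-158361549, minus strand: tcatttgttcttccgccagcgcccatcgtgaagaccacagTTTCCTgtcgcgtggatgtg
Snhg15, chr11:6528741-6528800, minus strand: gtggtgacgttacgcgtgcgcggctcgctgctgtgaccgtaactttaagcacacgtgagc
Snhg12, chr4:132308638-132308697, plus strand: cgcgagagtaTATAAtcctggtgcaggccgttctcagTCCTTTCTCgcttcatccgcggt
Snhg5, chr9:88522878-88522937, minus strand: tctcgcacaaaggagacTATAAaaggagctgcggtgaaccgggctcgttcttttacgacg
Snhg1, chr19:8723447-8723506, plus strand: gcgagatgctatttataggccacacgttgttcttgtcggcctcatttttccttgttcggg

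A pyrimidine run was found at 5 of the 10 hosts (50%), *Gas5*, *Snhg8*, *Snhg17*, *Snhg12* and *Snhg3*. The share was 16.7% of the 27025 genes with a window and 40.3% of 62 tested ribosomal protein genes. This rule, used for all these shares, is looser than a C start, as the run need not begin at the annotated first base. That base was C at the second *Gas5* start and *Snhg8*, T at the second *Snhg17* start and *Snhg12*, and G at *Snhg3*. On the opposite strand, a run of 5 or more C or T in the same window was found at 3 of the 10 hosts and in 21.7% of all genes. TATAA was found at 3 of the 10 hosts, *Snhg8*, *Snhg12* and *Snhg5*, and in 5.07% of all genes, and its reverse complement TTATA at 2 hosts and in 2.70% of all genes. The matches fall on both sides of the calls. *Snhg8*, *Gas5* and *Snhg17*, with runs, were among the hosts called lower, *Snhg12* and *Snhg3*, with runs, were not called, and *Snhg15*, called lower, had neither match.

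Members spanned the whole range of the table. *Malat1* was the highest gene of all in every library, at FPKM 16156, *Gas5* followed at a mean of 839 over the 4 libraries, and *Snhg15* at 291. *Mir155hg* had a mean of 135 and *Tug1* of 80.8, and the next 13 members lay between 71.0 (*Snhg5*) and 12.9 (*Snhg17*). In all, 26 members exceeded FPKM 1 in at least 1 library, and 17 did not. Among the 17 were the imprinted RNAs *Meg3* and *Kcnq1ot1* and the p53-induced *Trp53cor1*, while *H19*, *Rmrp*, *Snhg7*, *Snhg9* and *Mir133a-1hg* were listed at 0 in all 4 libraries. *Rmrp* has no poly(A) tail, and the *Snhg7* entry is 139 bp long and carries the name of a snoRNA in GENCODE M21.

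**Figure D1:**
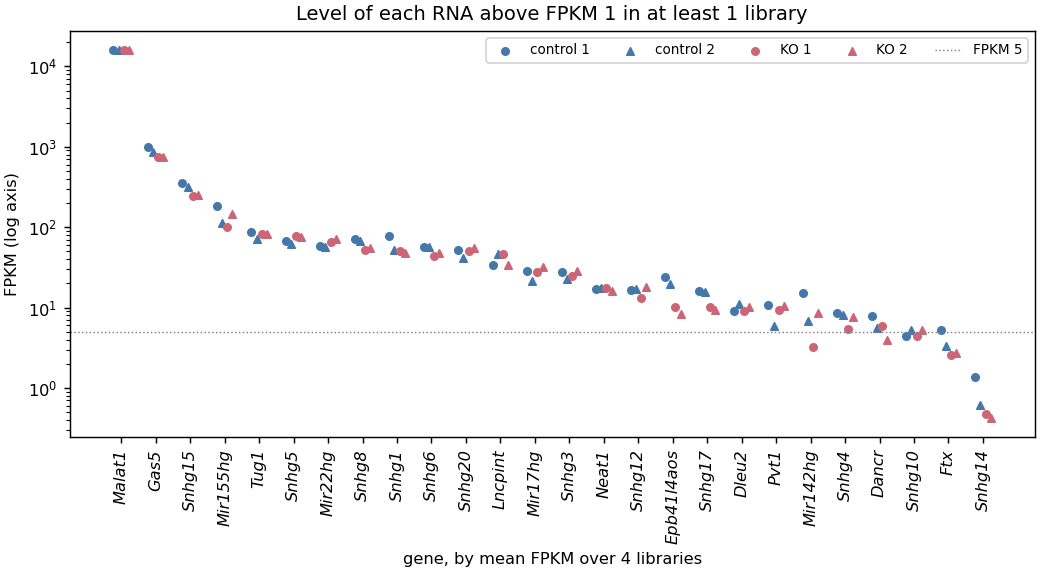
FPKM on a log axis of the 26 members above 1 in at least 1 library, ordered by mean, with 1 point per library (circles replicate 1, triangles replicate 2) and a dotted line at FPKM 5. *Malat1* sits at 16156 in all 4 libraries, and *Epb41l4aos* and *Snhg17* show the KO points apart from the control points.

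*KO against control.* The comparison asks which of these RNAs differ in level when Treg cells lose Setd2. No member was higher and 6 were lower in KO, and all 6 were snoRNA hosts: *Epb41l4aos*, *Snhg17*, *Snhg15*, *Snhg8*, *Gas5* and *Snhg6*. Their mean levels in KO were 42.4% to 80.8% of control. A call is an unadjusted p below 0.05 from limma on log2(FPKM + 1), over the 8489 genes whose mean FPKM passed 5 in at least 1 group, of which 23 were members. Of all tested genes 6.55% were called lower and 7.76% higher. No member passed at a Benjamini-Hochberg adjusted p of 0.05, which 0.153% of all tested genes did. With 2 libraries against 2, an exact permutation test cannot go below p = 0.333, so these calls rest on the spread limma shares across genes. The labels do not say that libraries came from separate sorts. In bulk RNA, fewer cells of a type and less RNA per cell cannot be told apart.

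*Epb41l4aos*, the host of a box H/ACA snoRNA on chromosome 18, had the largest difference of the 23. Its FPKM was 23.92 and 19.45 in control and 10.02 and 8.35 in KO. Both KO libraries lay below both control libraries, by more than replicates of either group differed. The log2 fold change (KO over control) was -1.15 (SE 0.18, unadjusted p = 0.000776, adjusted p = 0.121, limma, n = 2 per group). It was called under all 15 alternative settings, with log2 fold changes from -1.30 to -0.91. These settings include a replicate block that pairs the libraries crosswise, which was added after the data were seen. *Epb41l4a*, 341 bp away on the other strand, was at FPKM 0.26 to 0.71.

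*Snhg17*, which hosts 3 annotated snoRNAs (chromosome 2, 158353700 to 158361580, minus strand), was at 16.22 and 15.50 in control and at 10.27 and 9.42 in KO. Replicates differed by less than 1 FPKM, and the groups did not overlap. Its log2 fold change was -0.64 (SE 0.15, adjusted p = 0.199). *Snhg15* (chromosome 11, 6525591 to 6528760, minus strand) was at 353.85 and 315.09 in control and at 246.23 and 249.86 in KO, which gave a log2 fold change of -0.43 (SE 0.11, adjusted p = 0.215). It was called under all 15 alternatives, and the groups did not overlap. Its coding neighbours *Myo1g* and *Ccm2* were not called, with log2 fold changes of -0.24 and 0.15.

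*Snhg8* (chromosome 3, 123507552 to 123508404, minus strand) was at 71.39 and 67.01 in control and at 52.27 and 54.43 in KO. Its log2 fold change was -0.37 (SE 0.11, adjusted p = 0.274). *Gas5*, growth arrest-specific 5 (chromosome 1, 161034422 to 161038539, plus strand), carries 10 annotated snoRNAs, the most of the 6. Its level was 996.21 and 867.67 in control and 746.43 in each KO library. The identical KO values mean that *Gas5* took the same rank in both KO libraries, not that its level was measured without error. The log2 fold change was -0.32 (SE 0.11, adjusted p = 0.296). *Zbtb37*, on the opposite strand over *Gas5*, was at 1.05 and 1.09 in control and 2.03 and 5.32 in KO, and since the library kit is not stated to keep strand, reads of the pair cannot be told apart. *Snhg6* (chromosome 1, 9941959 to 9944118, minus strand) was at 57.33 and 56.65 in control and at 43.97 and 48.13 in KO. Its log2 fold change was -0.30 (SE 0.12, adjusted p = 0.335). *Gas5* and *Snhg8* kept their call under 10 and 11 of 15 alternatives and *Snhg6* under 9. Neither *Snhg8* nor *Snhg6* was called with the replicate number as a block.

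**Figure D2:**
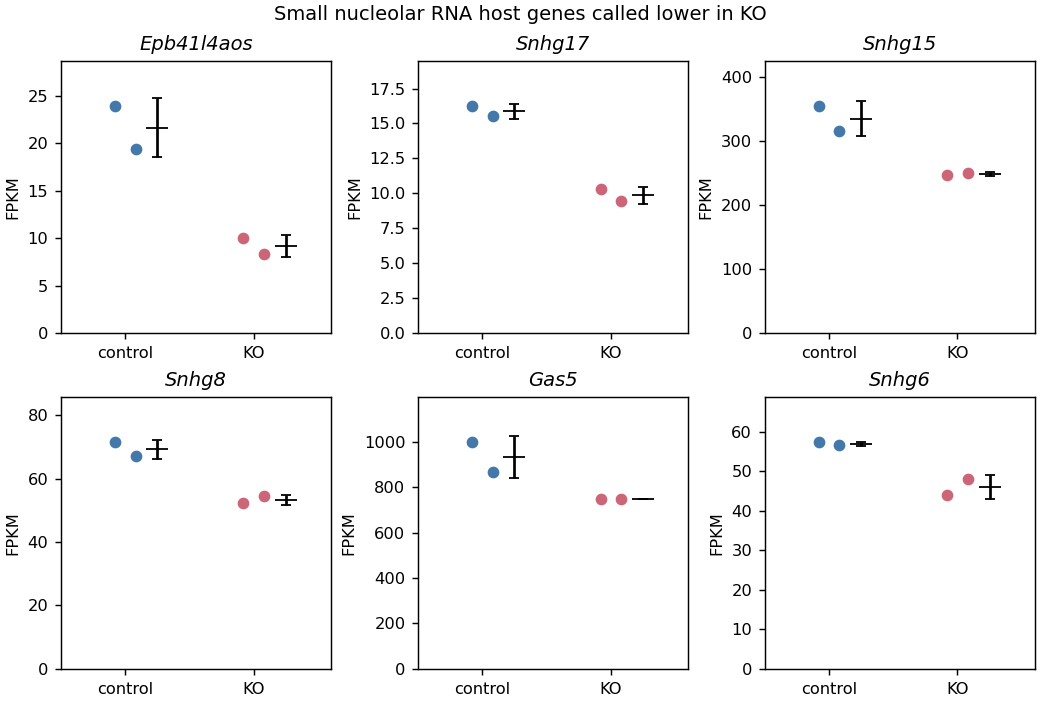
FPKM, on linear axes from 0, of the 6 snoRNA hosts called lower in KO, with a point for each library and, beside them, the mean with its SD (n = 2). In each panel both KO points lie below both control points, from 8.35 to 10.02 against 19.45 to 23.92 for *Epb41l4aos* and at 746.43 against 867.67 and 996.21 for *Gas5*.

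The other 7 tested snoRNA hosts were not called, and they did not share a direction. *Snhg5* was at 67.16 and 62.47 in control and at 78.24 and 76.02 in KO, above control in both libraries, with a log2 fold change of 0.25 (SE 0.11, adjusted p = 0.391). *Snhg1*, which carries 8 annotated snoRNAs, was at 77.96 and 52.40 in control and at 50.45 and 47.99 in KO, so the control libraries were further apart than the nearest libraries of the 2 groups. Its log2 fold change was -0.37 (SE 0.20, adjusted p = 0.464), and without control replicate 2 it was -0.65 and called. *Snhg4* had means of 8.29 and 6.44, without overlap, and *Dancr* of 6.64 and 4.89, with overlap. *Dancr* passed the filter only through the control group. *Snhg20* (46.1 and 53.4), *Snhg12* (16.9 and 15.4) and *Snhg3* (25.3 and 26.7) overlapped. Over *Snhg3* the count is uncertain, as 53.7% of its longest transcript matches *Gm17300* on the opposite strand at 100% identity.

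Over the 13 tested snoRNA hosts, the median log2 fold change was -0.34, against -0.0027 for all tested genes. Both KO libraries lay below both control libraries for 8 of the 13, and above for 1. That order held for 22.4% and 23.7% of all tested genes. The 6 called lower make up 46.2% of the tested hosts, and 3 hosts, *Epb41l4aos*, *Snhg15* and *Snhg17*, were called without control replicate 1 or without KO replicate 1. Without KO replicate 2, those called were *Epb41l4aos* and *Snhg15*. The 8 hosts that were not tested were *Snhg10* (4.90 in control, 4.84 in KO), *Snhg14* (0.99 and 0.45) and 6 entries that did not exceed 0.40.

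The snoRNAs themselves were out of reach of these libraries. Outside *Snhg14*, 40 snoRNAs, 34 microRNAs and 2 small Cajal body RNAs are annotated inside members, 49 to 275 bp long, and 74 of the 76 were listed at 0 in every library. All 10 snoRNAs of *Gas5* and all 8 of *Snhg1* were at 0. Whether the small RNAs changed with their hosts was not tested.

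*MicroRNA hosts.* None of the 5 tested microRNA hosts was called. They are shown with the main strand of microRNAs they are known for, since these products, not the host, act on target mRNAs. Both arms are given for miR-142. For *Mir17hg* only microRNAs that share a seed within the cluster are given, so miR-18a-5p and miR-92a-3p are left out. *Mir155hg*, formerly Bic, encodes miR-155, which is high in activated T cells and Treg cells, *Mir142hg* encodes miR-142, found throughout blood cells, *Mir17hg* the miR-17-92 cluster, and *Dleu2* miR-15a and miR-16-1. Sequences are from RefSeq (GRCm38.p6), with bases 2 to 8, the seed, in capitals.
miR-155-5p, chr16:84714143-84714165, plus strand: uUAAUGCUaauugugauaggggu
miR-142a-5p, chr11:87756867-87756887, plus strand: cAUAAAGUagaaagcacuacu
miR-142a-3p, chr11:87756903-87756925, plus strand: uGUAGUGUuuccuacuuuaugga
miR-17-5p, chr14:115043684-115043706, plus strand: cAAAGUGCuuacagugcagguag
miR-20a-5p, chr14:115044183-115044205, plus strand: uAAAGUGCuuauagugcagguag
miR-19a-3p, chr14:115044048-115044070, plus strand: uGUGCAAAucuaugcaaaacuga
miR-19b-3p, chr14:115044358-115044380, plus strand: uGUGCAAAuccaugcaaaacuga
miR-15a-5p, chr14:61632075-61632096, minus strand: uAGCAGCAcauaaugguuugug
miR-16-5p, chr14:61631936-61631957, minus strand: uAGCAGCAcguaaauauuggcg
miR-22-3p, chr11:75463772-75463793, plus strand: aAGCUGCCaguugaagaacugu

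Within the *Mir17hg* cluster, miR-17-5p and miR-20a-5p share the seed AAAGUGC, and miR-19a-3p and miR-19b-3p share GUGCAAA. The 2 microRNAs in *Dleu2* share AGCAGCA. The 5 hosts hold 21 mature microRNAs in the table (11 of them in *Mir17hg*), and none has a level here, because the rows of their precursors were all at 0.

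*Mir155hg* (chromosome 16, 84703167 to 84715245) was the highest of the 5 hosts, at 181.56 and 111.61 in control and at 99.71 and 145.73 in KO. Replicates of either group differed by more than the group means, 147 and 123, and its log2 fold change was -0.24 (SE 0.28, adjusted p = 0.747). *Mir142hg* (chromosome 11, 87755577 to 87757270) was at 15.15 and 6.80 in control and at 3.26 and 8.54 in KO. The log2 fold change of -0.82 was the second largest of all members, but its SE was 0.50 and the groups overlapped (adjusted p = 0.510). *Mir22hg* was at 58.28 and 56.11 in control and at 64.54 and 70.94 in KO, without overlap, at a log2 fold change of 0.24 (SE 0.12, adjusted p = 0.429). *Tlcd2*, which overlaps *Mir22hg* on the same strand, was at 6.85 and 7.89 in control and at 10.06 and 11.59 in KO and was called higher, and how reads were split between the pair was not tested. *Mir17hg* had means of 24.9 in control and 29.7 in KO, with overlap (log2 fold change 0.26, SE 0.19), and *Dleu2* of 10.1 and 9.56 (-0.07, SE 0.18). *Ftx*, an X-linked host near *Xist*, was below the filter at 5.26 and 3.34 in control and 2.59 and 2.69 in KO. The other 7 microRNA hosts did not exceed FPKM 0.70.

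*Nuclear-body and other regulatory RNAs.* No member of these groups was called. *Malat1* was at 16156 in all 4 libraries. This value is the top of the shared distribution, so any gene ranked first would carry it, and these data cannot show a difference in *Malat1*. *Gm37376*, an entry inside *Malat1* on the opposite strand, was at 11363 and 10095 in control and at 11363 and 12537 in KO. How reads were split between the pair was not tested. *Neat1* was at 16.83 and 17.38 in control and at 17.47 and 16.17 in KO, with a log2 fold change of -0.02 (SE 0.14, adjusted p = 0.962). *Tug1* was at 87.88 and 70.48 in control and at 81.56 and 83.11 in KO (log2 fold change 0.06, SE 0.14). *Lncpint*, a transcript induced by p53, had means of 40.4 and 40.3 (log2 fold change -0.0017, SE 0.21). *Pvt1*, the neighbour of *Myc*, had means of 8.28 in control and 9.85 in KO with overlap (0.27, SE 0.28), and without control replicate 1 its log2 fold change was 0.64 and called.

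**Figure D3:**
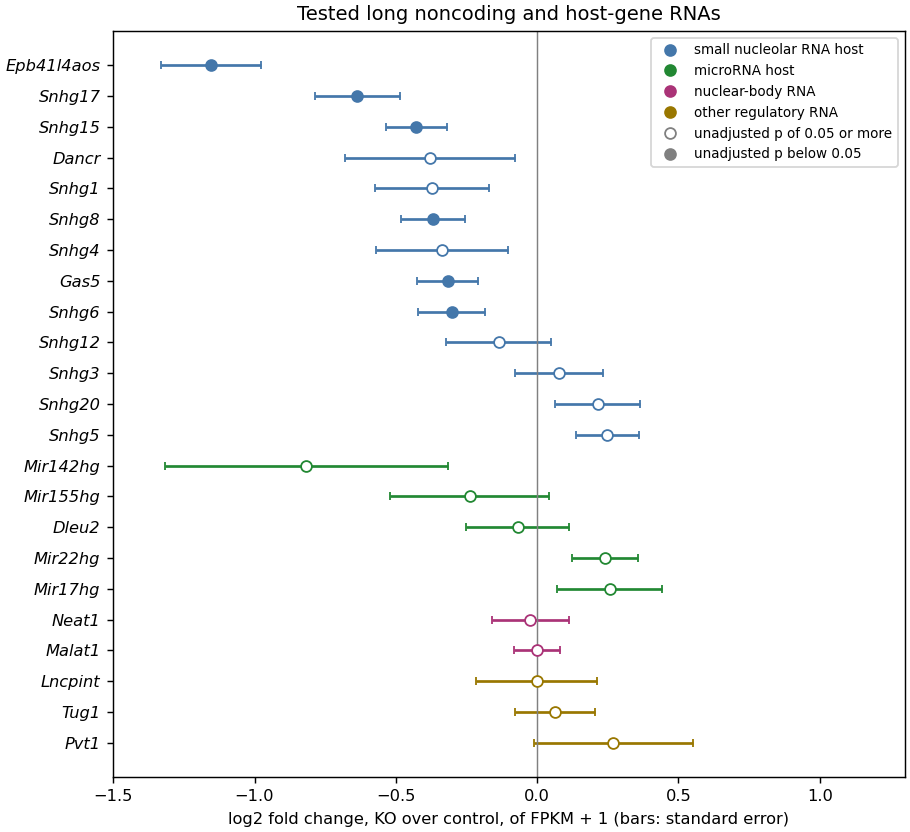
Log2 fold change (KO over control) of FPKM + 1 with its SE for the 23 tested members, grouped by role, with filled points for an unadjusted p below 0.05. The filled points are 6 snoRNA hosts from -1.15 (*Epb41l4aos*) to -0.30 (*Snhg6*), and the widest bar is that of *Mir142hg*.

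*Genes of the same pathways.* The snoRNA-binding proteins and the ribosomal proteins were called lower more often than the 6.55% of all genes, a difference that was not tested. Of 14 tested proteins that bind or assemble snoRNAs, 4 fell and 1 rose. The core box C/D proteins *Nop56* (1133 and 894 in control, 733 and 668 in KO), *Nop58* (138 and 111, then 86.2 and 86.6) and *Fbl*, fibrillarin, the methyltransferase (37.2 and 42.7, then 32.5 and 26.1), were among those that fell. *Nop10*, of the box H/ACA particle, fell from 32.3 to 24.0, and the assembly factor *Pih1d1* rose from 16.8 to 26.8. The list's median log2 fold change was -0.17. Without KO replicate 2 none of the 14 was called, and without any other single library or with the replicate block 2 were called lower.

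Of 84 tested ribosomal protein genes, 39 were called lower (46.4%) and none higher, with a median log2 fold change of -0.25. *Rpl29* had the largest difference, at 151 and 154 in control and at 39.7 and 59.2 in KO, and *Rpl15* (587 and 652, then 399 and 432) and *Rps19* (1149 and 1116, then 758 and 800) were also called. None passed at an adjusted p of 0.05, and the number called was 14 without KO replicate 1, 23 without control replicate 2 and 25 without the trend. Ribosomal protein genes have many near-identical processed pseudogenes, and how reads were split between them can move their FPKM. The letter rule for this list also took in 4 tested *Rps6k* kinases, left out of these counts, of which *Rps6ka1* and *Rps6kb2* were called higher. Still counted among the 84 are *Rps19bp1*, which is not itself a ribosomal protein gene, and *Rpl10-ps3* and *Rpl9-ps6*, named as pseudogenes. These entries were not called.

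In the remaining lists few genes were called, and none passed at an adjusted p of 0.05. Their shares are to be read against the 7.76% of all tested genes called higher and the 6.55% called lower. None of 15 tested genes of nonsense-mediated decay and the exon junction was called in either direction (median -0.05). In the nuclear RNA exosome 1 of 13, *Exosc8*, rose, from 104 to 168 (7.69% of the list, median 0.15). None of 6 microRNA processing genes was called (median -0.07), among them *Dicer1* at 8.62 in control and 8.15 in KO. Of 12 paraspeckle and speckle proteins, *Rbm14* fell from 11.8 to 6.89 (median -0.03). Among 7 tested p53 targets, *Cdkn1a*, the cell cycle inhibitor p21, rose from 820 to 1093, a single call in a list of that size (median -0.0026). Of 13 mitochondrially encoded mRNAs 2, *mt-Co3* and *mt-Nd6*, fell (median -0.02).

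**Figure D4:**
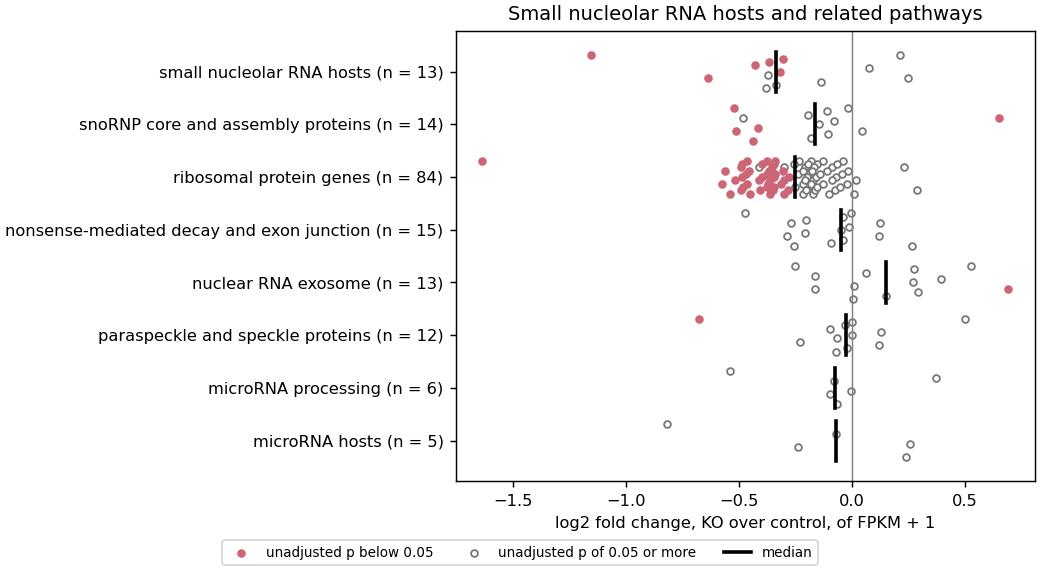
Log2 fold change (KO over control) of FPKM + 1 for each tested gene of 8 lists, 1 point per gene with no meaning in its height, in red where the unadjusted p is below 0.05, and a black bar at the list median. Red points lie left of 0 in 6 of 13 snoRNA hosts and 39 of 84 ribosomal protein genes, with medians of -0.34 and -0.25.

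Markers of other cells moved in places. *Epcam*, an epithelial marker, was called lower, and the 6 epithelial markers summed to at least 28.9 in control and at most 21.2 in KO, while the other 5, *Krt8*, *Krt20*, *Muc2*, *Vil1* and *Lgr5*, were at 0.19 or less. *Kit* was called lower, and the 4 mast cell markers summed to 16.6 to 18.8 in control and 12.4 to 12.5 in KO. Nearly all of that sum was *Kit*, while *Cpa3* was at 0.13 and 0 in control and 0.15 and 1 in KO, *Mcpt1* at 0 in control and 0.11 in KO, and *Mcpt2* at 0 in all libraries. *Pecam1* was called higher, and the 5 stromal and endothelial markers summed to at most 40.6 in control and at least 47.9 in KO. Most of that sum was *Pecam1*, at 34.65 and 36.26 in control and 49.25 and 42.72 in KO. *Dcn* was at 1.21 and 3.22 in control and 4.47 and 4.25 in KO, and *Col1a1*, *Col3a1* and *Pdgfra* were at 0.68 or less. Of 4 tested Treg markers, *Ikzf2* was called lower and *Ctla4* higher, and none of 5 T cell markers was called. The part of these cells or states in the host levels was not tested.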

How the data were processed

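By the sample records, RNA of about 200000 sorted cells per library was read as 150 bp pairs. The study's methods state a higher number of sorted large intestinal Treg cells. Per the study's methods the authors aligned reads with STAR 2.5 to GRCm38 and quantified GENCODE M16 genes with RSEM 1.2, and the deposited FPKM, rounded to 2 decimals, share 1 distribution, a step the methods do not name. FPKM keep no depth here, so edgeR, which the authors used, was not run, precision rests on the 2 libraries per group, and no counting interval is given. limma 3.58.1 (R 4.3.3) was fitted, with a trended prior, to log2(FPKM + 1) of genes of every type whose mean FPKM in at least 1 group was above 5, without a block, and p-values are two-sided with Benjamini-Hochberg adjustment over 8489 genes. The script was tested on simulated data. A fold change of log2(FPKM + 1) understates that of low genes. Members and lists were chosen with earlier results of these data known. Every tested member is named, those called and the 5 highest with all libraries. Other genes are neighbours or members of lists, described by counts and medians, and examples from the lists were picked after their values were seen. Positions come from GENCODE M21, in which 53274 of 53379 genes were found (*Snhg4* and the tested *Dancr* entry were not). Likeness between transcripts was searched with BLAST+ 2.17.0, at 95% identity over 30% of the member. The 15 alternatives were pseudocounts of 0.1 and 5, other filters, other scalings, no trend, a replicate block, each library left out and a crossed replicate block. The crossed block was added after the data were seen and is counted in the tallies of alternatives.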

Additional observations from a re-analysis of the deposited data

How the results depend on the processing

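The same number of members, 6, were lower under both pseudocounts, both stricter and looser filters on the mean, and all 3 scalings, and no member reached an adjusted p of 0.05 under any of the 15 alternatives. The columns already share nearly 1 distribution, so the 3 scalings could change little and are no check on the calls. With no filter 28807 genes entered the fit, and the median of the members was -0.026. In that fit 2 members were called higher, *Snhg5* and *Meg3*, and 5 lower. Of all genes in it 1326 were higher and 987 lower, and 0 passed the adjusted p. At a mean of at least 1, 5 genes passed it, and 3 did when limma used no trend. A block by replicate number gave 415 genes higher and 358 lower, with 4 members lower. Deviations of same-numbered libraries correlated at -0.13 over 8489 genes. This value cannot show how libraries were paired, and the labels state no pairing. A block that pairs them crosswise, added after seeing the data, called 7 members lower (the 6 and *Mir142hg*), 921 genes higher and 881 lower. With each library left out in turn, 2 to 6 members were lower and 0 to 1 higher, 282 to 562 genes were higher and 311 to 459 lower, 0 to 3 passed the adjusted p, and the member median ranged from -0.15 to -0.076. Of 345 values of single members under alternatives, 320 kept their side of the threshold. These kept direction too, or were uncalled and changed sign while moving by less than the SE of the main fit. A further 16 lost a call, 4 gained one, and 5 uncalled ones changed sign and moved by at least that SE. No called value reversed. The cause was not tested. Depth is unknown.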

Other observations

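Beyond the named members, 187 other long noncoding genes could be tested. In KO 19 were called higher (10.2%) and 12 lower (6.42%), with a median log2 fold change of 0.03. Of all tested genes 7.76% were called higher and 6.55% lower. The gene entered as *2900097C17Rik*, for which RefSeq lists *Norad* as another name, was at 79.16 and 57.21 in control and at 64.05 and 73.93 in KO, with overlap.

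The 2 small RNAs inside members that were not at 0 throughout varied by library. *Snora73b*, in *Snhg3*, was at 44.92 in KO replicate 1 and at 0 in the other 3 libraries. *Gm26083*, a small Cajal body RNA in *Snhg20*, was at 28.62 and 0 in control and at 79.93 and 42.19 in KO. Of 1507 snoRNA entries in the whole table, 7 were above 0 in any library.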
